A study of Mus musculus with 6 samples.

Results

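The genes described here encode proteins of the small subunit of the mitochondrial ribosome, measured in the gastrocnemius, a calf muscle, of mice lacking Sparc and of wild type mice. SPARC is a secreted glycoprotein of the extracellular matrix. Members were all probe sets whose only platform gene symbol begins with Mrps and a digit, together with Dap3 and Ptcd3. This gave 31 genes of the 19938 named genes on the array, held by 34 probe sets, and where a gene had 2 probe sets (3 genes) the brighter was used. The knockout group comprised 3 male mice homozygous for the Sparc knockout and the wild type group 3 male mice, all 12 weeks of age, with 1 array per mouse and no treatment. The strain of knockouts and wild types alike is given as B6;129S-Sparctm1Hwe/J, a mixed B6 and 129S background. The labels give neither litters nor array batches, and they name no Cre or promoter that would restrict the deletion to muscle fibres.

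Mitochondria make the core subunits of the respiratory chain from their own genome, on ribosomes of their own. The small subunit of that ribosome holds the messenger RNA and is where codons are read, on a scaffold of the 12S ribosomal RNA, which the mitochondrial genome encodes. All of its proteins are encoded in the nucleus and imported, so building a subunit depends on genes scattered over many chromosomes. Some of the proteins have bacterial counterparts, and others exist in mitochondrial ribosomes only. In humans, inherited loss of such proteins is a cause of combined respiratory chain deficiency.

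The deposited values are normalized probe-set intensities, here as log2. Sparc itself read 6.74, 6.46 and 5.83 in the knockout arrays, against 11.80, 11.73 and 11.87 in the wild type arrays. The median intensity per array was 40.5 to 44.7 over both groups. All 10 skeletal muscle markers were measured above the filter for dim genes, Acta1 and Ckm at mean log2 levels of 13.30 and 12.79 in knockout and 13.45 and 13.07 in wild type muscle. Of 16487 genes tested with limma, 164 (0.995%) had an adjusted p under 0.05, 53 higher and 111 lower in the knockouts.

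Transcripts for the small subunit were lower in Sparc knockout muscle in nearly the whole set, by small amounts. All 31 members were bright enough to be tested, and 29 had a negative change, against 8243 of the 16487 genes tested. The median change over the members was -0.24 on the log2 scale, a level lower by 15.4%, whereas the median over all genes tested was 5.34e-05. The changes ran from -0.71 for Mrps14 to 0.05 for Mrps5, with the middle 50% of members between -0.35 and -0.11 and the middle 50% of all genes between -0.13 and 0.13. In bulk muscle, fewer cells that hold these transcripts and less transcript per cell cannot be told apart.

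Only Mrps14 passed the threshold over all genes, so the list held 1 called gene of 31, where 0.673% of all genes were called lower. No member was called higher. The other 30 members had limma adjusted p-values between 0.0726 and 0.967. At an unadjusted p under 0.05, 16 members were lower and 0 higher, against a background of 10.3% of all genes lower and 8.16% higher. The knockout values lay entirely below the wild type values in 20 of the 31 members (64.5%), against 13.8% of all genes tested, and entirely above in 0 members, against 11.1%. Among those 20 the gap between the highest knockout and the lowest wild type array was 0.02 to 0.59, with a median of 0.12.

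**Figure D1:**
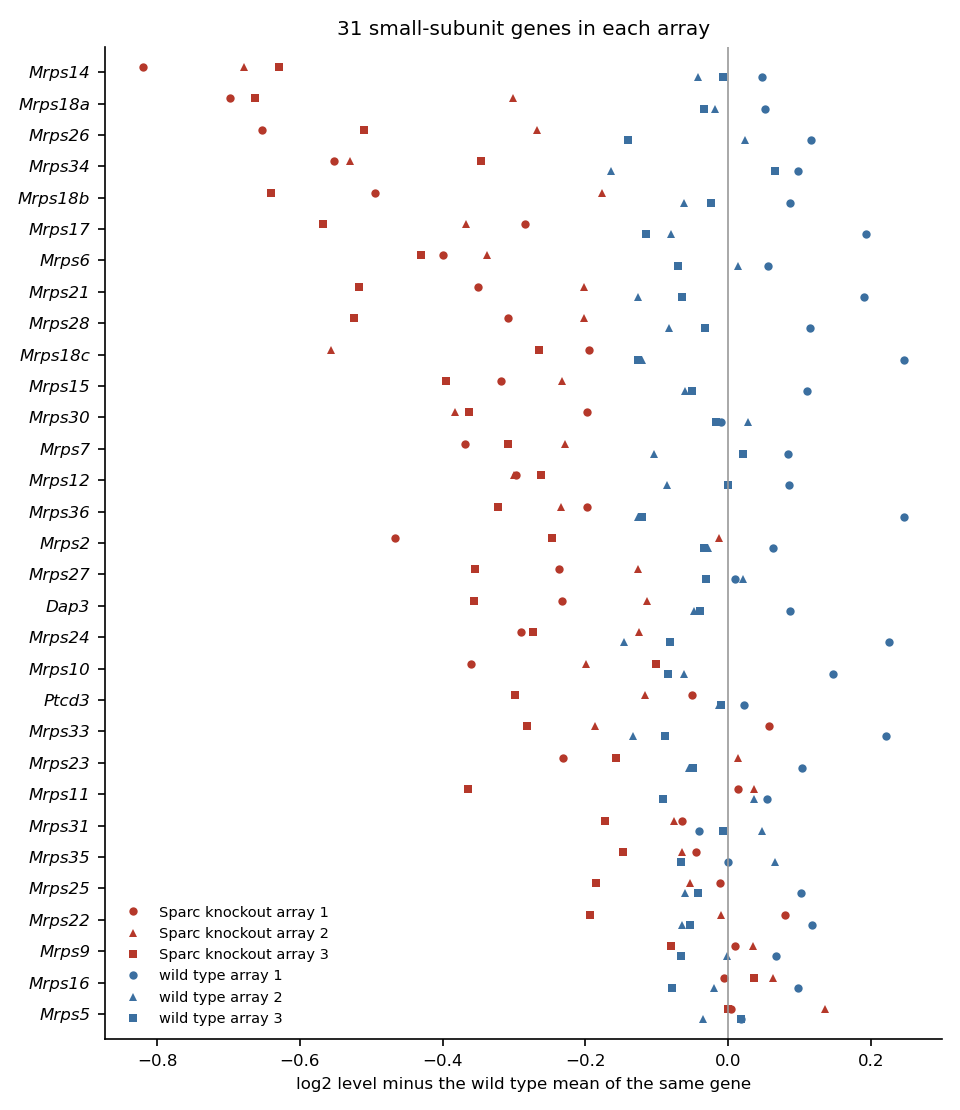
Log2 level of each of the 31 members in each array (horizontal axis), after subtracting the gene's wild type mean, with knockout arrays in red above wild type arrays in blue on each row and array numbers as marker shapes. Mrps14 stands at the top with a change of -0.71, and 20 members have all 3 knockout points to the left of all 3 wild type points.

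Each knockout array showed the lower levels. Set against each gene's wild type mean, the median member stood at -0.24 in knockout array 1, -0.19 in array 2 and -0.31 in array 3, and at 0.09, -0.05 and -0.05 in wild type arrays 1, 2 and 3. The groups of array medians did not overlap. Knockout array 3 was the lowest knockout in 18 members and lay under every wild type array in 29, while knockout arrays 1 and 2 did so in 23 and 21. Over all genes tested those shares were 43.1%, 28.3% and 36.9% in knockout arrays 1, 2 and 3, and over the members they were 74.2%, 67.7% and 93.5%. Within the wild types, array 1 was the highest in 27 of 31 members. Without that array the median change of the members was -0.21, and without wild type array 2 or 3 it was -0.30 or -0.27. In each of these fits 0 members were called.

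Summed markers of macrophages, tendon and fibroblasts were higher in the knockouts in the same arrays, while the adipocyte sums overlapped between genotypes. All 14 macrophage markers had positive changes, and their summed intensity was 3743 to 6956 in knockout and 2718 to 3035 in wild type arrays. All 8 tendon markers were positive too, with sums of 5486 to 10036 in knockout and 3421 to 4997 in wild type arrays, as were all 8 fibroblast markers, with sums of 16424 to 21174.5 in knockout and 14458 to 15939 in wild type arrays. The 9 adipocyte markers measured were all negative, with sums of 2895 to 3329 in knockout and 2858 to 4826 in wild type arrays. The lowest of these wild type sums was that of array 1, the array highest in most members, against 4652 and 4826 in wild type arrays 2 and 3. Of the 10 muscle markers 8 were negative, with a median change of -0.10 and sums of 65354 to 72142 in knockout and 72983 to 73839 in wild type arrays. Of 8 markers of slow and oxidative fibres, listed after values had been seen, 7 were negative, with sums of 4772 to 10208 in knockout and 7200 to 7689 in wild type arrays. The highest of these sums was that of knockout array 3, the array with the lowest median member. No marker was at 0 in any array. By limma, only the slow myosin light chain Myl3 passed the threshold and fell (change -1.23, adjusted p = 0.0256). At an unadjusted p under 0.05, 19 of the 57 markers measured were higher and 5 lower. Over all genes tested, 8.16% were higher and 10.3% lower at that level. The part of these cell types in the lower small-subunit transcripts was not tested.

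The class called conserved here held genes for proteins with bacterial counterparts, counting both Mrps18b and Mrps18c. Of these 17 genes, 15 had a negative change, with a median of -0.30. In 11 of the 17 (64.7%) the knockout values were entirely under the wild type values, against 13.8% of all genes tested. Mrps14, whose protein sits in the head of the subunit, carried the largest change of all members. It read 7.03, 7.17 and 7.22 in the knockout arrays, against 7.90, 7.81 and 7.84 in the wild type arrays. The groups were 0.59 apart at their nearest points, the widest gap of any member, and wider than the range within either group. Mrps14 fell 1.64-fold (log2 change -0.71 ± 0.09 SE, limma adjusted p = 0.0147). Leaving out wild type array 1, 2 or 3 kept the change at -0.69, -0.73 or -0.71 but moved the adjusted p to 0.0982, 0.0971 or 0.113. In those fits of 5 arrays 27 to 32 of all genes passed.

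Mrps6, a protein of the platform of the subunit, read 7.65, 7.71 and 7.62 in knockout and 8.10, 8.06 and 7.98 in wild type arrays. Both groups were tight and 0.27 apart, with a change of -0.39 ± 0.09 (SE, limma adjusted p = 0.0807). Mrps15 read 9.93, 10.02 and 9.86 in knockout and 10.36, 10.19 and 10.20 in wild type arrays, again without overlap. Mrps17 read 7.36, 7.28 and 7.08 in knockout and 7.84, 7.57 and 7.53 in wild type arrays. Wild type array 1 stood above the other wild types in both. Their changes were -0.32 ± 0.09 and -0.41 ± 0.12 (SE), with limma adjusted p-values of 0.131 and 0.135.

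Mrps7, whose bacterial counterpart nucleates assembly of the head, read 8.69, 8.83 and 8.75 in knockout and 9.14, 8.96 and 9.08 in wild type arrays. Mrps12, the counterpart of the bacterial protein S12 at the decoding centre, read 7.12, 7.12 and 7.15 in knockout and 7.50, 7.33 and 7.42 in wild type arrays. The knockout values of Mrps12 were the tightest of any member, with an SD of 0.02, and all lay under the wild types. The changes were -0.30 ± 0.09 for Mrps7 and -0.29 ± 0.09 for Mrps12 (SE, limma adjusted p = 0.143 and 0.148). Mrps28 read 8.49, 8.60 and 8.27 in knockout and 8.91, 8.72 and 8.77 in wild type arrays, a change of -0.34 ± 0.11 (SE, limma adjusted p = 0.155). Mrps21 and Mrps10 were also separate, with changes of -0.36 and -0.22, although the gap for Mrps10 was only 0.02.

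The remaining conserved proteins overlapped between genotypes. Mrps2 and Mrps24 had changes of -0.24 and -0.23, and in each the highest knockout array exceeded the lowest wild type array by 0.02. Mrps11 stood at -0.10 and Mrps9 at -0.01. Mrps16, whose loss in humans was among the earliest known defects of this ribosome, read 8.15, 8.22 and 8.19 in knockout and 8.26, 8.14 and 8.08 in wild type arrays. Mrps5, whose bacterial counterpart lines the messenger RNA channel, read 7.89, 8.02 and 7.88 in knockout and 7.90, 7.85 and 7.90 in wild type arrays. These were the only members with a positive change, of 0.03 ± 0.09 and 0.05 ± 0.09 (SE). Mrps16 was at -0.0094 after each array was centred on its median and at -0.0080 without wild type array 3. The second probe set of Mrps5 gave -0.04, so the sign of Mrps5 differed between its probe sets.

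**Figure D2:**
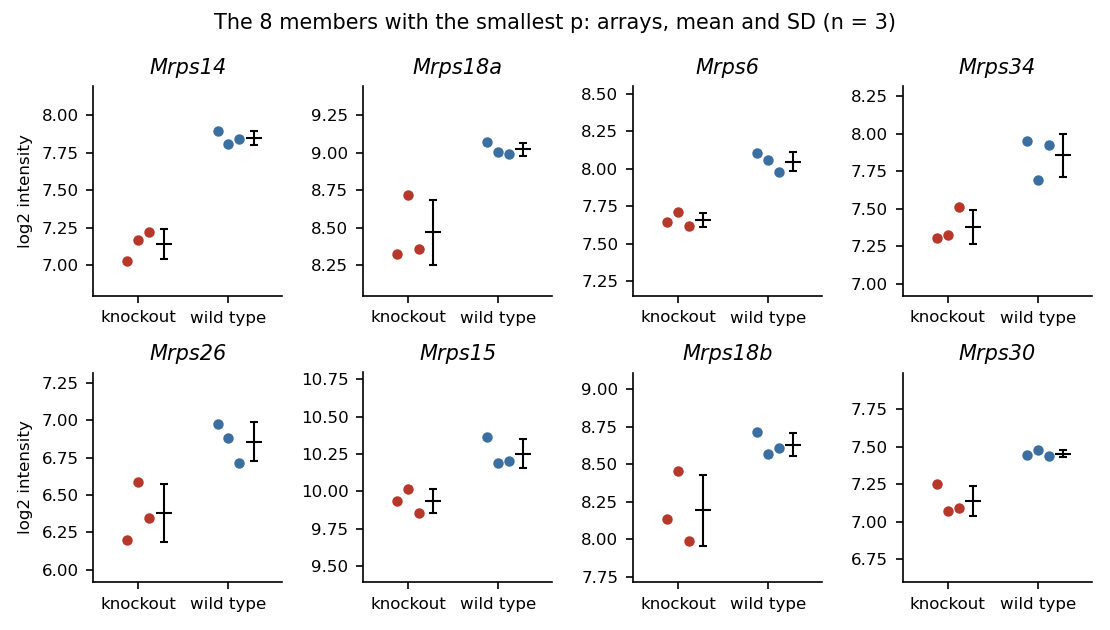
Log2 intensity of the 8 members with the smallest p in each array (points), with the mean and SD of 3 arrays beside them, knockouts left in red and wild types right in blue. Every panel spans the same range of 1.4 log2 units, and in each the highest knockout lies under the lowest wild type, by 0.59 in Mrps14 and 0.11 in Mrps18b.

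The S18 family has 3 genes in mammals, descended from the gene of a single bacterial protein. The products of Mrps18b and Mrps18c sit in the small subunit, whereas that of Mrps18a is found in the large subunit in structures of the mammalian ribosome. Mrps18a read 8.32, 8.72 and 8.36 in knockout and 9.07, 9.00 and 8.99 in wild type arrays. Mrps18b read 8.13, 8.45 and 7.99 in knockout and 8.72, 8.57 and 8.61 in wild type arrays. In both genes knockout array 2 was the highest of the knockouts. Mrps18c read 8.25, 7.88 and 8.18 in knockout and 8.69, 8.32 and 8.32 in wild type arrays, with knockout array 2 the lowest. The changes of Mrps18a, Mrps18b and Mrps18c were -0.55 ± 0.12, -0.44 ± 0.13 and -0.34 ± 0.14 (SE), at limma adjusted p-values of 0.0726, 0.133 and 0.245. Without knockout array 2, Mrps18a and Mrps18b passed at -0.68 and -0.57 (adjusted p = 0.00901 and 0.0233).

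For proteins that mitochondrial ribosomes have and bacteria lack, the change was negative in all 11 genes, with a median of -0.14. Of these genes, 6 were separate and lower (54.5%), against 13.8% of all genes tested. The difference from the conserved class was not tested, and the changes of the classes overlapped, from -0.48 to -0.04 here and from -0.71 to 0.05 there. Mrps34, whose product is needed for stability of the small subunit in mice, read 7.30, 7.33 and 7.51 in knockout and 7.95, 7.69 and 7.92 in wild type arrays. Mrps26 read 6.20, 6.59 and 6.35 in knockout and 6.97, 6.88 and 6.72 in wild type arrays. Neither gene overlapped between groups, and both had a change of -0.48 (SE 0.11 and 0.12, limma adjusted p = 0.0826 and 0.108). Mrps27, which encodes an RNA-binding pentatricopeptide repeat protein, read 6.70, 6.81 and 6.58 in knockout and 6.95, 6.96 and 6.91 in wild type arrays. Its change was -0.24 ± 0.10 (SE, limma adjusted p = 0.232).

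Dap3, a GTP-binding protein of the subunit's head also known as death-associated protein 3, read 7.47, 7.59 and 7.35 in knockout and 7.79, 7.66 and 7.66 in wild type arrays. Ptcd3, another pentatricopeptide repeat protein, which lies at the entry of the messenger RNA channel, read 8.31, 8.24 and 8.06 in knockout and 8.38, 8.35 and 8.35 in wild type arrays. Both were separate between groups, by 0.07 and 0.04, with changes of -0.23 ± 0.10 and -0.15 ± 0.10 (SE). Mrps31 was separate by 0.02 at a change of -0.10. The other 5 genes of the class overlapped, with Mrps33 at -0.14, Mrps23 at -0.12, Mrps35 at -0.09, Mrps25 at -0.08 and Mrps22 at -0.04. The sign of Mrps22 turned without knockout array 3, at 0.035, and without wild type array 1, at 0.018. Mrps33 read -0.14 and -0.12 with its 2 probe sets, and RefSeq lists 1 pseudogene of it whose transcripts the probes may not tell apart.

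The symbol rule also took in genes whose products are placed elsewhere. Mrps30, like Mrps18a, encodes a protein seen in the large subunit, and it read 7.26, 7.07 and 7.09 in knockout and 7.44, 7.48 and 7.44 in wild type arrays. Its wild type arrays were tight and all knockouts lay below them, with a change of -0.31 ± 0.09 (SE, limma adjusted p = 0.133). The product of Mrps36 is known as a component of the 2-oxoglutarate dehydrogenase complex of the citric acid cycle. Mrps36 read 7.60, 7.56 and 7.47 in knockout and 8.04, 7.67 and 7.67 in wild type arrays, a change of -0.25 ± 0.12 (SE) that came to -0.28 with its second probe set. RefSeq lists 3 pseudogenes of Mrps36. Without Mrps18a, Mrps30 and Mrps36, the remaining 28 members had a median change of -0.24. Of these, 17 were separate and lower (60.7%), against 13.8% of all genes tested.

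Members lie on 14 chromosomes, and promoter sequence was available from RefSeq (GRCm38.p6) for 27 of the 31 genes, in 28 windows of 300 bases. The windows were searched on both strands for CCGGAAG, the core of sites for the ETS factor GABPA, AAGATGGCG, a form of the YY1 site, and GCGCATGC, the core of the site for nuclear respiratory factor NRF1. These factors are known for nuclear genes of mitochondrial function. The 5 promoters that follow show the member with the largest change, which holds none of these letters, then 3 members with large changes that do hold some, and Mrps22, which holds the GABPA letters at a change of -0.04. Sequences run 5′ to 3′ along the gene's strand, and capitals mark the matches.
Mrps14, chr1:160194965-160195264, plus strand: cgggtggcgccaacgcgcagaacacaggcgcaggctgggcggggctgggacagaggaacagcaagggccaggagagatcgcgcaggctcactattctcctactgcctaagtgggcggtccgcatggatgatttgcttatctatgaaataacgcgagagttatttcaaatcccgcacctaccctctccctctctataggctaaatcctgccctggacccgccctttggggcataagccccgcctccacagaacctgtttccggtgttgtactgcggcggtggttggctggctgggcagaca
Mrps18a, chr17:46110754-46111053, plus strand: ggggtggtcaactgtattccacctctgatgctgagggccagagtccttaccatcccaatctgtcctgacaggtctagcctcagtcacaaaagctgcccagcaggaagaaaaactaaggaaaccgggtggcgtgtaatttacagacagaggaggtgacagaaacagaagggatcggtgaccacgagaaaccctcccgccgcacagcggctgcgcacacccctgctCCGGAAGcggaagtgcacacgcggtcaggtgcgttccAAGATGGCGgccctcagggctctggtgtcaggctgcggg
Mrps18b, chr17:35916391-35916690, minus strand: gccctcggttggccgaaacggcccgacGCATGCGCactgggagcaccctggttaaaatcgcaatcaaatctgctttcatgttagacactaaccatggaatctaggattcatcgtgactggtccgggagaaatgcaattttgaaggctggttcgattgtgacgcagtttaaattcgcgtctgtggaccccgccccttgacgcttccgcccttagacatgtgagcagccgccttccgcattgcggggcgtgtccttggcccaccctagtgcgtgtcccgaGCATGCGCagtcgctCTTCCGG
Mrps26, chr2:130563507-130563806, plus strand: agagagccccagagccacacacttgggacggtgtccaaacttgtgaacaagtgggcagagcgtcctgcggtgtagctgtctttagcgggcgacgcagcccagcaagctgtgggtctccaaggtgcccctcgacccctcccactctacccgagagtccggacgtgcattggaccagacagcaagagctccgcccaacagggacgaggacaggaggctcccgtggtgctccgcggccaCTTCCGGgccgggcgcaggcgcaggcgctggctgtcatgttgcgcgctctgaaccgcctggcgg
Mrps22, chr9:98601630-98601929, minus strand: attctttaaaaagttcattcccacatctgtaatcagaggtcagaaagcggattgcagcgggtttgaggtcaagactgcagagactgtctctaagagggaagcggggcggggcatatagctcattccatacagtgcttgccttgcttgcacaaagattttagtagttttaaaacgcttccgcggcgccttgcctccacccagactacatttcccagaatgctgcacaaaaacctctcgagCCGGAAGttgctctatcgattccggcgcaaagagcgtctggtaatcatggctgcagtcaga

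The GABPA letters stood in 11 of the 28 member windows (39.3%), against 13.7% of the 16311 windows of tested genes and 8.86% of all 32851 windows. The YY1 letters stood in 5 member windows (17.9%), against 2.22% of those of tested genes, and the NRF1 letters in 1 (3.57%), against 4.19%. The windows reach past the transcription start, and GABPA matches lay on both sides of it. The YY1 match lay upstream in Mrps11, at base -108. In Mrps18a, Mrps24, Mrps27 and Ptcd3 it lay downstream, at bases 11, 36, 14 and 19. The YY1 letters contain ATG, the letters of a start codon, and whether any match is a bound site was not tested. Mrps18a and Mrps27 held both the GABPA and the YY1 letters, and Mrps18b held the GABPA letters and a pair of NRF1 matches. The 11 genes with the GABPA letters had changes from -0.55 to 0.03 with a median of -0.29, and the 16 genes without them had a median of -0.24. For the YY1 letters the order was the other way, with medians of -0.23 in the 5 genes with them and -0.27 in the 22 without.

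Among genes that build the small subunit, 1 of 9 measured passed the threshold, where 0.673% of all genes were called lower. Of 9 measured genes for assembly of the subunit and modification of its RNA, 8 were negative, with a median change of -0.16, and 5 were separate and lower, against 13.8% of all genes. Rbfa, a factor that binds the small subunit during maturation of its RNA, read 6.89, 6.97 and 6.73 in knockout and 7.43, 7.49 and 7.39 in wild type arrays. The groups were 0.42 apart, and Rbfa fell 1.49-fold (log2 change -0.57 ± 0.10 SE, limma adjusted p = 0.0397), the 1 called gene of this list. That call was lost in 6 of 16 alternative settings, among them leaving out wild type array 1, 2 or 3 or knockout array 3 (adjusted p = 0.189, 0.212, 0.201 and 0.0716), with changes of -0.62 to -0.50 over all 16. Eral1, a GTPase that chaperones the ribosomal RNA, had a change of -0.38 ± 0.13 (SE, limma adjusted p = 0.176). Ybey was the 1 positive gene of the list, at 0.11.

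Chchd1, a protein of the small subunit that the symbol rule leaves out, read 8.68, 8.41 and 8.42 in knockout and 9.00, 8.76 and 8.74 in wild type arrays. The groups did not overlap, and the change was -0.33 ± 0.12 (SE, limma adjusted p = 0.184). Among 14 mitochondrial translation factors, 12 were negative, with a median of -0.20, and 7 were separate and lower, against 13.8% of all genes. None passed the threshold by limma, where 0.673% of all genes were called lower. At an unadjusted p under 0.05, 4 were lower, against 10.3% of all genes. The smallest p-values belonged to the release factor Mtrf1 at -0.40 ± 0.12 (SE, adjusted p = 0.143) and to Mrpl58, a peptide-releasing protein of the large subunit, at -0.29 ± 0.09 (SE, adjusted p = 0.16).

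The messages that this ribosome translates were represented by 2 mitochondrially encoded genes, which overlapped between genotypes. The probe sets for ND3, a complex I subunit, read 12.78, 12.62 and 12.70 in knockout and 12.72, 12.63 and 12.58 in wild type arrays. Those for COX2, a complex IV subunit, read 13.02, 12.87 and 12.98 in knockout and 13.03, 12.98 and 12.93 in wild type arrays. Their changes were 0.05 ± 0.08 and -0.03 ± 0.08 (SE), with limma adjusted p-values of 0.786 and 0.907.

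**Figure D3:**
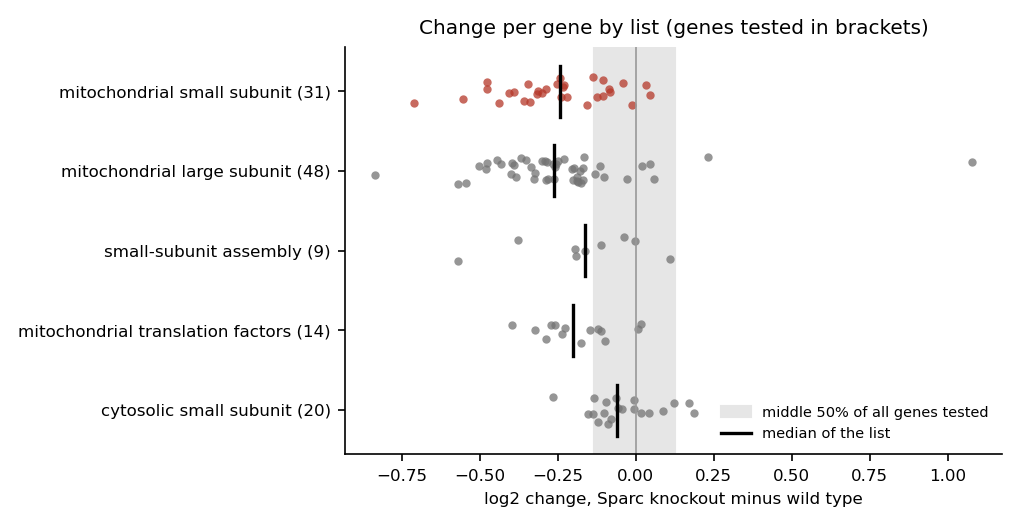
Log2 change, Sparc knockout minus wild type, of each tested gene (points) in the small-subunit set and in 4 related lists, with the median of each list as a black bar and the middle 50% of all genes tested (-0.13 to 0.13) in grey. The medians are -0.24 for the small subunit, -0.26 for the large subunit, -0.16 for assembly, -0.20 for translation factors and -0.06 for the cytosolic small subunit.

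The small subunit was set beside the large mitochondrial subunit and the small subunit of the cytosolic ribosome. The 48 large-subunit genes had a median change of -0.26, with 43 negative and 30 separate and lower (62.5%, against 64.5% of the small-subunit genes and 13.8% of all genes). Where 0.673% of all genes were called lower, Mrpl54 and Mrpl55 fell (changes of -0.57 and -0.83, limma adjusted p = 0.0499 and 0.019). Mrpl54 lay just under the threshold. Where 53 of the 16487 genes tested were called higher, Mrpl20 rose (1.08, limma adjusted p = 0.00187). The 20 cytosolic genes had a median of -0.06, with 14 negative, 1 separate and lower (5.00%), and 0 called by limma at either an adjusted or an unadjusted p under 0.05. The lists differed by array. In knockout array 1 the median small-subunit gene stood at -0.24 and the median cytosolic gene at 0.08, whereas in knockout array 2 they stood at -0.19 and -0.22. Wild type array 1 was the highest of the wild types in the median of both, at 0.09 and 0.16. The difference between these lists was not tested.

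**Figure D4:**
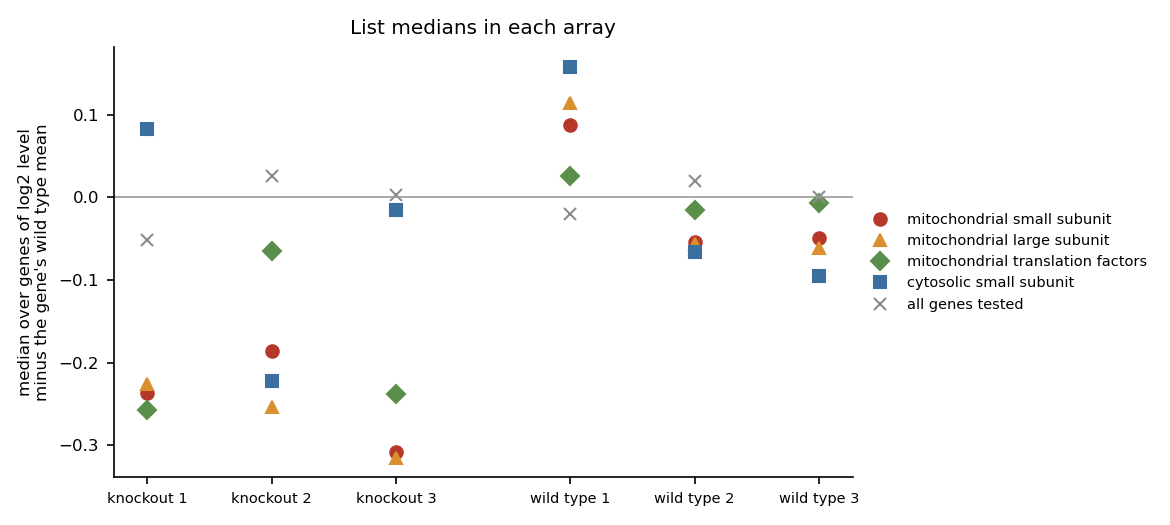
Median over the genes of each list of the log2 level minus the gene's wild type mean (vertical axis) in each array, knockouts left and wild types right. The small subunit (red circles) lies at -0.31 to -0.19 in knockouts and -0.05 to 0.09 in wild types, while the cytosolic small subunit (blue squares) lies at -0.22 to 0.08 in knockouts and -0.10 to 0.16 in wild types.

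Alternative settings left the direction of the set in place. Over 16 alternatives, which include leaving out each array, the median change of the members was -0.30 to -0.20, and 26 to 30 members were negative. The settings that alter the values themselves and keep all 6 arrays could lower the count of separate members. It was 20 after median centring, with an offset of 16 and with averaged probe sets, and 19 after a second quantile normalization, against 13.9% to 17.9% of all genes in those settings. The 20 after median centring were not the same genes, since Mrps31 and Ptcd3 then overlapped and Mrps2 and Mrps24 became separate and lower. Without knockout array 2, 5 members passed (16.1%, against 3.60% of all genes called lower), namely Mrps14, Mrps18a, Mrps18b, Mrps26 and Mrps6.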

How the data were processed

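RNA of 6 gastrocnemius samples was hybridised to an Affymetrix mouse gene array. The deposited values are linear probe-set intensities that the authors made, per the submitters' processing notes, by RMA in version 1.3.0.187 of Affymetrix Expression Console. The sources used here give no genome build for these array values. All 6 value columns were used and 0 were unmapped. The design had assumed log2 values; log2 of the intensity was taken, with no offset.

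Probe sets with 1 platform symbol (21789 of 35556) were used, and the brightest stood for a gene. Genes whose mean fell below the 25th percentile over probe sets (3.90) were left out, leaving 16487. The comparison of genotypes used limma 3.58.1 (R 4.3.3, eBayes with trend, two-sided, Benjamini-Hochberg over all genes, threshold 0.05). The procedure was also run on simulated data in which both groups had the same spread, unlike the arrays here. There it called 31.9%, 82.2% and 97.3% of the genes changed by 0.5, 1 and 2 on the log2 scale. Changes are knockout minus wild type. Errors are SDs over 3 arrays or moderated standard errors (SE).

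Each array was taken as 1 mouse, and it is their number that sets the precision. Members, lists and tests were chosen with earlier results of these data known. Every member could be named; from related lists, called genes or else the 2 smallest p-values were taken, and Eral1 and Ybey stand outside that rule. Aurkaip1, also a small-subunit protein, is not analysed here.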

Additional observations from a re-analysis of the deposited data

How the results depend on the processing

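The number of genes called over all 16487 was 164, and it was 103 after median centring, 329 with array weights and 27 to 1017 when 1 array was left out (1017 without knockout array 2, and 32, 30 and 27 without wild type arrays 1, 2 and 3). The median SD over genes was 0.163 in knockout and 0.091 in wild type arrays, while the main fit used 1 spread for both groups. Array weights ran from 0.31 for knockout array 1 to 2.31 for wild type array 2. The number of members called was 1 and ranged from 0 to 5 when 1 array was left out; it was 0 without any 1 of the wild type arrays and 5 without knockout array 2. Mrps14 kept its call in all alternatives other than those that leave out a wild type array, with changes of -0.75 to -0.65. Signs turned only in members with changes near 0. These were Mrps9 (0.0092 with array weights, 0.017 after a second quantile normalization, 0.023 without knockout array 3, 0.022 without wild type array 1, and -0.044 to 0.023 over the fits that leave out an array), Mrps11 (0.025 without knockout array 3, and -0.18 to 0.025 over such fits), Mrps16 (-0.0094 after median centring, -0.0080 without wild type array 3, and -0.0080 to 0.080 over such fits) and Mrps22 (0.035 without knockout array 3, 0.018 without wild type array 1, and -0.10 to 0.035 over such fits). The causes were not tested. Median centring moved the median of all genes by -0.04. The labels share replicate numbers between genotypes, but same-numbered arrays did not deviate together (correlations of 0.01, 0.08 and -0.02 for numbers 1, 2 and 3). With the replicate number as a block 123 genes and 1 member, Mrps14 (adjusted p = 0.0426), passed, and Rbfa lost its call (adjusted p = 0.0666), while a block cannot move the changes or the separation of the arrays; after median centring Rbfa had an adjusted p of 0.0621. Leaving out Mrps18a, Mrps30 and Mrps36 was chosen after seeing the data. Dim genes were no limit here, since the members' mean levels were 6.54 to 10.09, above the filter at 3.90.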
